A study of Mus musculus with 6 samples.

Results

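The ADAM, ADAMTS and ADAMTS-like gene families were described in the inguinal mammary gland, taken whole from C57BL/6J mice aged 4 weeks and measured on 6 Affymetrix whole-transcript arrays. Members were taken by gene symbol, as every Adam, Adamts or Adamtsl symbol followed by a number and at most 1 letter. This gave 56 of 22180 measured genes, of which 33 were ADAMs, 18 ADAMTS and 5 ADAMTS-like genes. The wild-type group held 3 samples of genotype Mt1-mmp(+/+). Mt1-mmp is the older name of Mmp14, a matrix metalloproteinase held in the cell membrane. The stromal knockout group held 3 samples labelled Dermo1Cre/Mt1-mmp(fl/fl). In mice of this genotype a Cre recombinase expressed from the Dermo1 (Twist2) locus of mesenchymal cells removes the floxed gene. The groups were littermates, per the series' design text. Because the labels name the Cre only together with the floxed allele, an effect of Cre and the loss of Mmp14 cannot be told apart. The glands are mixed tissue of ducts, fat, fibroblasts, vessels and immune cells, so fewer cells of a type and less RNA per cell cannot be told apart either. Adamts2 and Adam34 were not analysed here.

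ADAM proteases are membrane proteins with a disintegrin domain, and many of them release growth factors, receptors and adhesion molecules from the cell surface by cutting them near the membrane. ADAMTS proteases are secreted, carry thrombospondin-type repeats, and cut proteoglycans, procollagens and other matrix proteins, whereas ADAMTS-like proteins share the repeats and lack the protease domain. In the growing mammary duct, ADAM17 is known for releasing amphiregulin, the epithelial ligand that activates the EGF receptor in the stroma.

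Values are log2 signals, and every difference is knockout minus wild type on that scale with the standard error (SE) of the limma fit, n = 3 arrays per group. A gene was called when its limma p, adjusted by Benjamini-Hochberg over all 22180 genes, was under 0.05. Array medians over these genes lay between 4.45 and 4.71. Mmp14 fell by 2.25 ± 0.17 (adjusted p = 0.000454). A level under 2.68, the 33rd percentile of gene levels, was treated as low. This is not a measured background, so a difference with a group mean below it was read as a possible lower bound only. The mean over 15 skeletal muscle markers was 5.85 on wild type 1 and 3.39 to 3.90 on the other 5 arrays. Each array, wild type 1 included, was left out in turn, and calls that this ended are given beside the gene.

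Among the 56 members, 9 fell and 4 rose. Over all genes 7.2% fell and 5.05% rose. Most of the falls were in ADAMTS genes, of which 6 of 18 fell and 1, Adamts9, rose, with a median difference of -0.53 against 0.03 over all genes. Of the 33 ADAMs, 3 fell (Adam23, Adam10 and Adam19) and 2 rose (Adam11 and Adam3), with a median of -0.01. Of the 5 ADAMTS-like genes, 1 rose (Adamtsl3) and 0 fell, with 2 lower and 2 higher at an unadjusted limma p under 0.05, where the shares over all genes were 13.4% and 13.1%. In 21 members the knockout arrays were each below the lowest wild-type array, and in 6 members each above the highest, where the shares over all genes were 15.4% and 17.2%. With each array centred on its own median, the median over all genes moved from 0.03 to 0.22, 14.2% of genes rose and 5.31% fell. Under that scaling 2 ADAMs rose and 3 fell, 1 ADAMTS gene rose and 5 fell, 2 ADAMTS-like genes rose and 0 fell, and the ADAM median turned to 0.18 while the ADAMTS median was -0.34. With arrays left out, 2.23% to 3.95% of all genes rose and 4.37% to 6.43% fell, 3 ADAMTS genes fell without wild type 1 and 4 or 5 when 1 of the other arrays was omitted. Adamts9 was called in none of the 6 fits that leave out an array. Of the ADAMs, 1 rose without wild type 1, 2 without knockout 3 and 0 without any of the other 4.

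The families also differed in how many members gave a readable signal. The mean over the 6 arrays was under 2.68 in 20 of 33 ADAMs, 2 of 18 ADAMTS and 0 of 5 ADAMTS-like genes, against 33% of all genes.

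**Figure D1:**
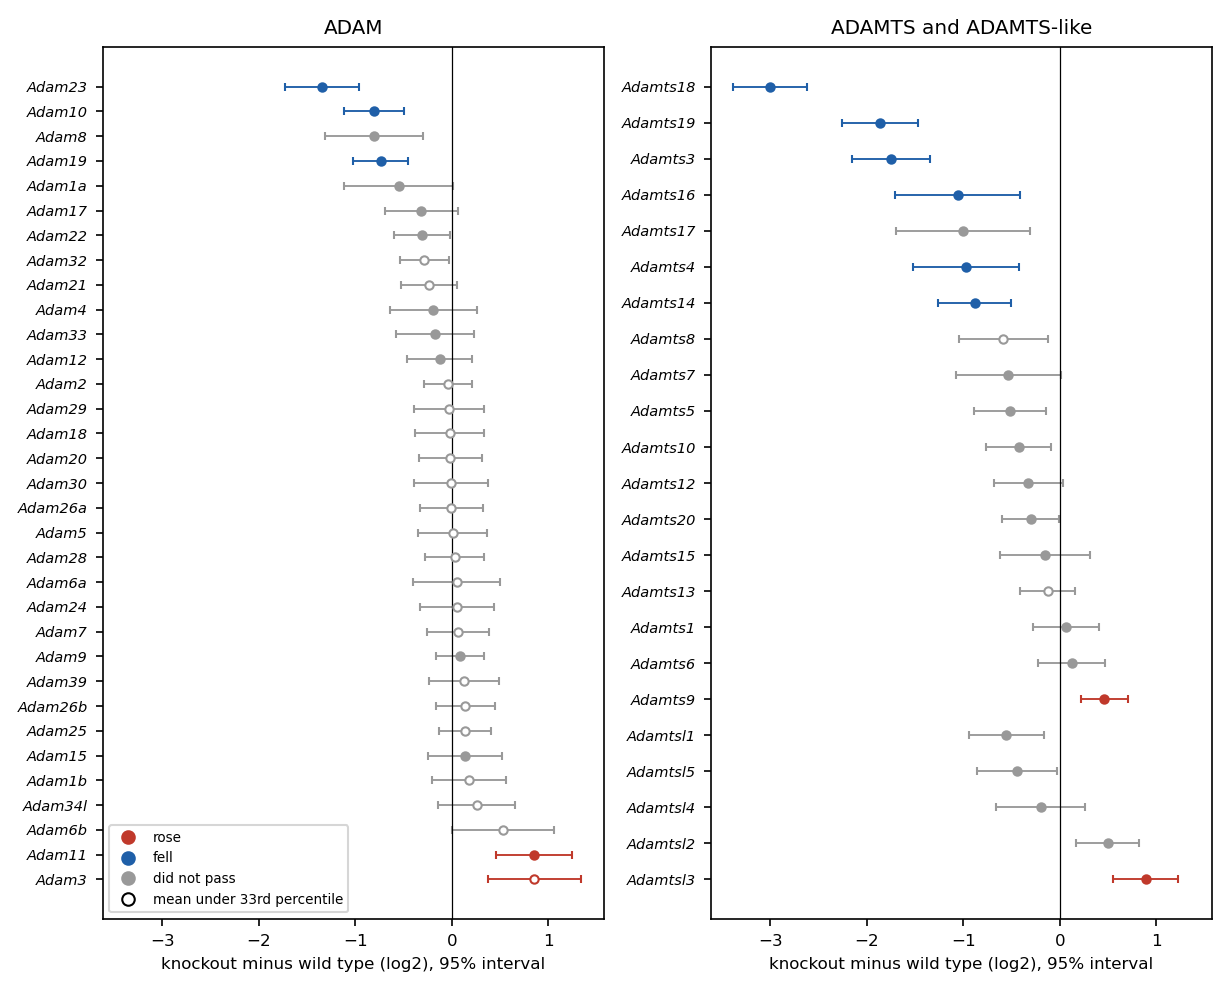
Difference of each of the 56 members, knockout minus wild type in log2 units, with its 95% interval from the limma fit; ADAMs are on the left, ADAMTS and ADAMTS-like genes on the right. Blue marks the 9 members that fell, red the 4 that rose and grey those that did not pass, and open circles mark a mean level under 2.68. Adamts18 lies farthest from 0, at -3.0.

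Adamts18, a secreted protease known from mammary myoepithelial cells, where progesterone acts on it through luminal cells, had the largest difference of all members. Its signal was 5.71, 5.67 and 5.83 on the wild-type arrays and 2.47, 2.68 and 3.05 on the knockout arrays. The groups were far apart, and 2 of the 3 knockout arrays were low, which makes the size a possible lower bound. It fell by 3.003 ± 0.16, to 12.5% of the wild-type level (8.02-fold, 95% interval 6.16 to 10.4; adjusted p = 0.000154). Adamts19, another secreted ADAMTS, read 5.87, 6.10 and 5.50 in wild type and 3.82, 4.08 and 3.97 in the knockout. It fell by 1.87 ± 0.17, to 27.4% (adjusted p = 0.000831), and every knockout array lay more than a log2 unit under every wild-type array. Both kept their call with any 1 array left out, Adamts18 at adjusted p 0.000219 to 0.00212 and Adamts19 at 0.00201 to 0.0073.

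Adamts16 and Adamts17, relatives of Adamts18 and Adamts19, were lower as well, and Adamts16 passed. Adamts16 read 5.10, 5.36 and 5.39 in wild type and 3.60, 4.26 and 4.81 in the knockout, a fall of 1.06 ± 0.28 (adjusted p = 0.0472). The knockout arrays were widely spread and the call was lost when any array but knockout 3 was omitted (adjusted p 0.0714 to 0.13), after repeated quantile normalization (0.0734) and with arrays centred on their medians (0.0523). Adamts17 differed by -1.003 ± 0.30 (adjusted p = 0.0695), with no overlap between the groups, and passed with an intensity trend (0.0388) or a robust one (0.0385).

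The procollagen N-proteinases, which trim the amino-terminal propeptide from fibrillar procollagens, fell in both measured members. Adamts3, which also activates the lymphatic growth factor VEGF-C together with CCBE1, read 5.62, 5.61 and 5.53 in wild type and 3.84, 3.49 and 4.18 in the knockout. The wild-type arrays lay within a narrow range, and all knockout arrays were clearly below it. It fell by 1.75 ± 0.18, to 29.7% (3.36-fold, 95% interval 2.54 to 4.46; adjusted p = 0.00122), and stayed past the threshold with any 1 array left out (0.00109 to 0.00986). Adamts14 read 6.02, 5.95 and 5.64 in wild type and 4.75, 4.996 and 5.22 in the knockout, with no overlap, and fell by 0.88 ± 0.16, to 54.2% (adjusted p = 0.0127). Its call was lost without wild type 1 (adjusted p = 0.0536, from 0.0149 to 0.0536 over the arrays left out). A second, dimmer Adamts14 probe set gave -0.20 (adjusted p = 0.408 with every probe set tested), and the mean of both gave -0.54 (adjusted p = 0.0419).

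**Figure D2:**
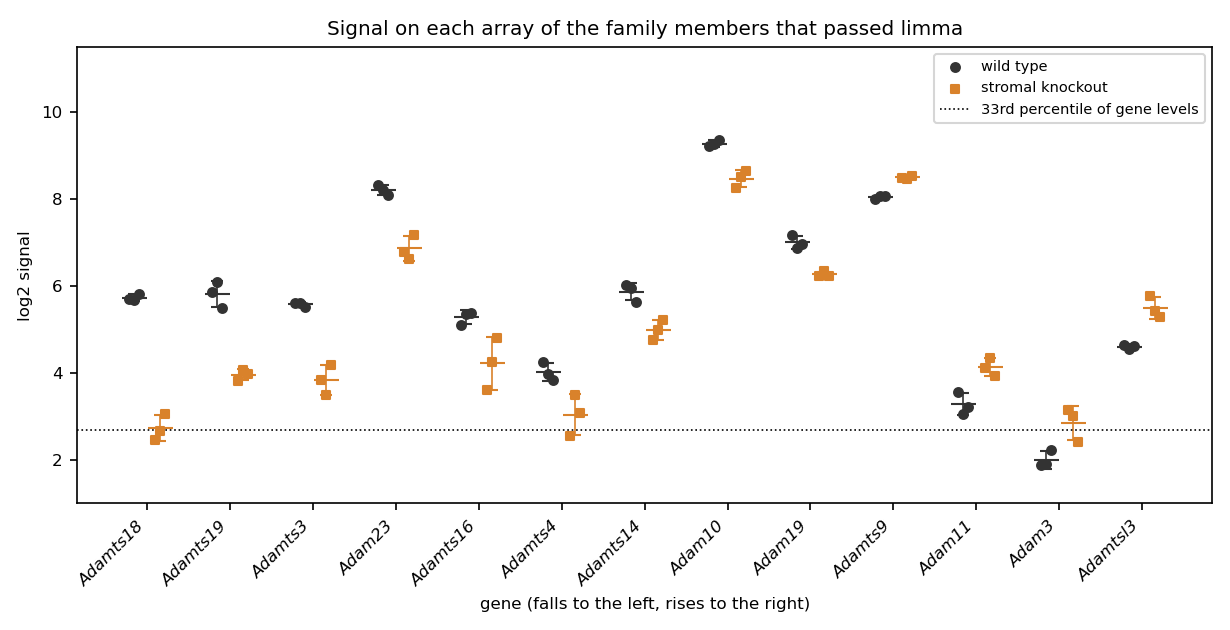
Log2 signal of the 13 members past the threshold on each of the 6 arrays, with wild type as black circles, stromal knockout as orange squares, and bars for the mean and SD of 3 arrays. In every member the groups do not overlap. The dotted line is the 33rd percentile of gene levels (2.68), and 2 knockout arrays of Adamts18, 1 of Adamts4, and 4 arrays of Adam3 lie under it.

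The proteases that cut hyalectans, the large hyaluronan-binding proteoglycans such as versican and aggrecan, had differences in both directions. Of 7 members, 5 had a lower knockout mean, and the median difference was -0.30. By limma, Adamts4 fell and Adamts9 rose, where 7.2% of all genes fell and 5.05% rose. Adamts4 read 4.25, 3.98 and 3.83 in wild type and 2.56, 3.49 and 3.08 in the knockout, with 1 knockout array under 2.68. It fell by 0.98 ± 0.24, to 50.8% (adjusted p = 0.035). That call ended when any array but knockout 2 was omitted (adjusted p 0.0644 to 0.119), with array weights (0.0515) and after repeated quantile normalization (0.0659).

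Adamts9, which is expressed by vessels and stroma in many tissues, read 7.99, 8.07 and 8.06 in wild type and 8.48, 8.47 and 8.54 in the knockout. Both groups were tight and apart, and it rose by 0.46 ± 0.11 (1.37-fold, 95% interval 1.16 to 1.63; adjusted p = 0.0293). The adjusted p was 0.0629 to 0.092 with any 1 array left out, so the call ended in all 6 such fits. Its closest relative, Adamts20, read 4.27, 4.52 and 4.33 in wild type and 4.17, 4.11 and 3.92 in the knockout, without overlap, and differed by -0.30 ± 0.13 (adjusted p = 0.18).

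Adamts5, the main aggrecan-cutting enzyme of cartilage, read 8.97, 8.77 and 8.86 in wild type and 8.02, 8.53 and 8.49 in the knockout. The groups did not overlap, and the difference of -0.52 ± 0.16 did not pass (adjusted p = 0.0773). It passed with an intensity trend (0.0257; from 0.0237 to 0.204 over 15 other fits). Adamts1, which lies beside Adamts5 on chromosome 16, read 6.93, 6.56 and 6.58 in wild type and 6.64, 6.70 and 6.93 in the knockout, an overlapping pair of groups (+0.07 ± 0.15, adjusted p = 0.824). The 95% interval of the Adamts1 difference ran from -0.28 to 0.41. Adamts15 differed by -0.15 ± 0.20, and Adamts8 was low in both groups, at -0.58 ± 0.20 (adjusted p = 0.104). Omitting wild type 2 gave -0.78 for Adamts8, which then passed (adjusted p = 0.039).

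Among the remaining ADAMTS genes, Adamts12, which cuts cartilage oligomeric matrix protein, read 9.85, 9.71 and 9.82 in wild type and 9.16, 9.56 and 9.68 in the knockout. The knockout arrays lay just under the wild-type range, and the difference was -0.33 ± 0.15 (adjusted p = 0.227). Adamts7, with a like substrate, differed by -0.53 ± 0.23 (adjusted p = 0.197). Adamts10 and Adamts6, a pair linked to fibrillin microfibrils, differed by -0.43 ± 0.15 (adjusted p = 0.102) and +0.12 ± 0.15 (adjusted p = 0.668). Adamts13, the protease of von Willebrand factor, was low in both groups.

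The ADAMTS-like genes encode matrix glycoproteins, some of which bind fibrillin. Adamtsl3 read 4.64, 4.54 and 4.62 in wild type and 5.76, 5.43 and 5.29 in the knockout, so every knockout array was above the narrow wild-type range. It rose by 0.89 ± 0.15 (1.85-fold, 95% interval 1.47 to 2.34; adjusted p = 0.00829) and kept its call with any 1 array left out (0.00987 to 0.0327). Adamtsl2 was 0.49 ± 0.14 higher in the knockout (adjusted p = 0.0618), and Adamtsl1 was 0.56 lower, at -0.56 ± 0.17 (adjusted p = 0.072), both without overlap. Adamtsl2 passed in 5 other fits, such as that with low genes left out (0.0405), and Adamtsl1 passed with an intensity trend (0.0344) or a robust one (0.0332). Adamtsl5 differed by -0.45 ± 0.18 and Adamtsl4 by -0.20 ± 0.20.

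Promoters of 3 members that fell and 2 that rose are printed to show what the starts of these genes look like, and were chosen after their values were seen. They were taken from RefSeq on GRCm38.p6, from 250 bases before to 50 after the start, for 30 of the 56 members and 8 of the 13 called ones. They lie at chr8:113848790-113849089 (minus strand) for Adamts18, chr5:89883285-89883584 (minus) for Adamts3, chr9:70678732-70679031 (plus) for Adam10, chr6:92943485-92943784 (minus) for Adamts9 and chr7:82335444-82335743 (plus) for Adamtsl3. Capitals mark any of 5 motifs, searched on either strand with overlapping matches counted. The GC box, bound by Sp1 and its relatives, was searched as GGGCGG. The second motif, read by the factor NF-Y in many housekeeping and tissue genes, was the CCAAT box, searched by the letters of its name. The core promoter element that positions the polymerase, known as the TATA box, was searched as TATAAA. The site of the AP-1 factors Fos and Jun, which many stimuli of growing cells induce, was searched as TGANTCA. Lastly, the site of the TEAD factors, which work with the Hippo pathway's coactivators, was searched as GGAATG.

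Adamts18: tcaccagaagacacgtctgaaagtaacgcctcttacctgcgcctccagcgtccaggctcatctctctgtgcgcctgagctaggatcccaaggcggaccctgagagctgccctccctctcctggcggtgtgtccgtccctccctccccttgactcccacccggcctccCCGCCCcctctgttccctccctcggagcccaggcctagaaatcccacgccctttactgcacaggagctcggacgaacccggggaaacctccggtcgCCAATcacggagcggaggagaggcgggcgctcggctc

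Adamts3: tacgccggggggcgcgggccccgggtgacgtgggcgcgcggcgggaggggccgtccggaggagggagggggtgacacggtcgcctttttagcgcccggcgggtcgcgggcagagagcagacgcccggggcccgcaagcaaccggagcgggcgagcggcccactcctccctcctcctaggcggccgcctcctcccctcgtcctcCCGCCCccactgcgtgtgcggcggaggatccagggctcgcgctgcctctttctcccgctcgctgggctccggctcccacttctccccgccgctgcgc

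Adam10: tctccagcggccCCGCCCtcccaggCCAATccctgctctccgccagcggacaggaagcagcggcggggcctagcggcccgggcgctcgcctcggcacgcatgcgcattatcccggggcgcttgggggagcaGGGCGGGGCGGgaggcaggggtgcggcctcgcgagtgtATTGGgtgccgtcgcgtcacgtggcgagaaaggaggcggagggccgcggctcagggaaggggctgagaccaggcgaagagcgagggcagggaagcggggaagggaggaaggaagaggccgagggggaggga

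Adamts9: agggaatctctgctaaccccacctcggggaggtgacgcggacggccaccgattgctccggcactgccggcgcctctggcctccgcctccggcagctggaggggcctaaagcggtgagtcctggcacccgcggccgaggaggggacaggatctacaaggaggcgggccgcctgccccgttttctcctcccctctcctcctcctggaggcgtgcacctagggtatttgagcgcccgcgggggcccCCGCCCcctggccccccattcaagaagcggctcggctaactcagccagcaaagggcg

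Adamtsl3: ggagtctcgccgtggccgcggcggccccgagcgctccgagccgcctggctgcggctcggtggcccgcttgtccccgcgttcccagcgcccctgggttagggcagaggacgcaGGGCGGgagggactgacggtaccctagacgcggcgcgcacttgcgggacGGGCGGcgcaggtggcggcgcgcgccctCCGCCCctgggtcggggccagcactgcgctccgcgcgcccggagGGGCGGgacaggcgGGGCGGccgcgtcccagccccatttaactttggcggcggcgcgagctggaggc

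All 5 windows were rich in G and C, at 66.0% for Adamts18, 77.3% for Adamts3, 73.3% for Adam10, 70.0% for Adamts9 and 78.7% for Adamtsl3, against a median of 52.7% over 32851 promoters. Each held a GC box, with 5 in Adamtsl3, 3 in Adam10 and 1 in each of the others, and 35.7% of all promoters held at least 1. A CCAAT box stood in Adamts18 and Adam10 (37.4% of all promoters). None of the 5 windows held the TATA, AP-1 or TEAD letters, which 13.6%, 7.81% and 14.7% of all promoters held. Over the 32 windows of the members, 16 held a GC box, 13 a CCAAT box, 6 a TATA box, 5 the AP-1 letters and 3 the TEAD letters. Adam19, another member that fell, has 3 windows with 49.3%, 60.3% and 57.0% G and C. Of these, only the second held a GC box, beside 1 AP-1 and 1 TEAD match. The windows of Adam23 and Adamts14, which fell as well, had 70.0% and 76.7% G and C. Adamts14 held 7 GC boxes, and Adam23 held none of the 5 motifs. A match is a description of the window only.

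The broad sheddases showed unequal differences. Adam10, which cuts Notch receptors, E-cadherin and the amyloid precursor protein, read 9.22, 9.26 and 9.36 in wild type and 8.26, 8.52 and 8.64 in the knockout. Every knockout array lay under the wild-type range. Adam10 fell by 0.81 ± 0.13, to 57.2% (1.75-fold, 95% interval 1.41 to 2.17; adjusted p = 0.0087), and passed with any 1 array left out (0.0126 to 0.0362). Adam17, which releases tumour necrosis factor and EGF receptor ligands, read 7.85, 7.75 and 7.62 in wild type and 7.11, 7.51 and 7.65 in the knockout. These groups overlapped, and the difference of -0.32 ± 0.16 did not pass (adjusted p = 0.269; 95% interval -0.69 to 0.06). Adam9 read 8.84, 8.71 and 8.76 in wild type and 8.81, 8.90 and 8.87 in the knockout (+0.09 ± 0.11, adjusted p = 0.661; 95% interval -0.16 to 0.34).

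Among the other ADAMs with known roles outside the germ line, Adam19, which cuts neuregulins and is known from heart and nerve, fell. It read 7.18, 6.88 and 6.96 in wild type and 6.22, 6.34 and 6.24 in the knockout, so the groups were well apart. The fall was 0.74 ± 0.12, to 60.0% (adjusted p = 0.00887), and it held with any 1 array left out (0.0181 to 0.0336). A second, low Adam19 probe set gave -0.44 (adjusted p = 0.191 with every probe set tested). Adam12, its relative, known from muscle and fat progenitors, read 9.16, 8.74 and 8.78 in wild type and 8.80, 8.67 and 8.84 in the knockout. The difference was -0.12 ± 0.14 (adjusted p = 0.647). Wild type 1, with the highest mean over the muscle markers, was its highest array. Knockout 3, with the lowest such mean, was the next highest. The part of muscle in the Adam12 values was not tested.

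Adam8, a protease of leukocytes, read 5.19, 4.54 and 5.30 in wild type and 4.29, 4.37 and 3.95 in the knockout. The groups did not overlap, but the difference of -0.81 ± 0.22 missed the threshold (adjusted p = 0.0521). It passed with low genes left out (0.0378), with an intensity trend (0.0413), with array weights (0.0408) and without wild type 2 (0.0162), within 0.0162 to 0.158 over 15 other fits. In the same arrays 7 of 12 macrophage markers fell and 0 rose, beside 7.2% and 5.05% of all genes. Their summed level was 12.4 to 12.7 in wild type and 11.92 to 12.04 in the knockout, with none low in both groups. Of 11 lymphocyte markers, 3 fell and 0 rose, with Cr2 and Ms4a1 low in both groups. The part of macrophages or lymphocytes in the Adam8 values was not tested. Adam15, which is found on endothelial and epithelial cells, read 7.98, 7.37 and 7.77 in wild type and 7.88, 7.84 and 7.82 in the knockout (+0.14 ± 0.17, adjusted p = 0.648). Adam33, expressed in mesenchyme, read 7.06, 6.73 and 7.26 in wild type and 7.09, 6.76 and 6.69 in the knockout (-0.17 ± 0.17, adjusted p = 0.587). Neither gene separated the groups. Adam28, a lymphocyte and epithelial ADAM, was low in both groups.

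Adam11, Adam22 and Adam23 lack protease activity and serve as adhesion proteins and receptors for LGI proteins, best known from the nervous system. Adam23 fell and Adam11 rose. Adam23 read 8.33, 8.21 and 8.09 in wild type and 6.79, 6.62 and 7.18 in the knockout, a wide gap. It fell by 1.34 ± 0.16, to 39.4% (2.54-fold, 95% interval 1.95 to 3.30; adjusted p = 0.00262), and held with any 1 array left out (0.00219 to 0.0168). Adam11 read 3.56, 3.06 and 3.23 in wild type and 4.12, 4.35 and 3.93 in the knockout, a rise of 0.85 ± 0.17 (1.81-fold, 95% interval 1.37 to 2.38; adjusted p = 0.0176). The call ended when wild type 2 or 3 or knockout 1 or 2 was omitted (adjusted p 0.0503 to 0.0637). Adam22 differed by -0.31 ± 0.13 (adjusted p = 0.171). Of 4 measured Schwann cell markers, Sox10 fell and 0 rose, with a summed level of 10.08 to 10.35 in wild type and 10.05 to 10.24 in the knockout and none low in both groups. Pmp22, at 9.97 and 9.99, made up most of that sum, while Sox10 fell by 1.55 ± 0.18. Mbp, Mag and Pmp22 differed by 0.22, 0.12 and 0.02 and did not pass, and the median of the list was 0.07. The part of nerve in these differences was not tested.

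The other 21 ADAMs include those known from sperm and the epididymis, and 18 of them were low in both groups. Their differences ran from -0.55 for Adam1a to +0.86 for Adam3. Adam3, a sperm protein needed for passage into the oviduct, was the 1 gene of this set that passed. It read 1.88, 1.90 and 2.23 in wild type and 3.15, 3.01 and 2.42 in the knockout, so all 3 wild-type arrays and 1 knockout array lay under 2.68. The rise of 0.86 ± 0.21 (adjusted p = 0.0356) is a possible lower bound only. The call ended when any array but knockout 3 was omitted (adjusted p 0.0541 to 0.117). Of 8 measured male germ cell markers 0 rose and 0 fell by limma, and 5 were low in both groups. At an unadjusted p under 0.05, 1 of the 8, Tnp1, was higher. The summed germ cell level was 10.07 to 10.41 in wild type and 10.13 to 10.34 in the knockout, and Odf1, at 10.15 in each group, made up nearly all of it. In 6 of the 8 markers the knockout mean was higher, as it was in 12073 of all 22180 genes, with a median difference of 0.11 over the list. Tnp1, which was low in both groups, differed by 0.48, Zpbp by 0.39, Prm1 by 0.29 and Spata19 by 0.14. Akap4, Ldhc, Odf1 and Tnp2 differed by 0.08, 0.04, -0.001 and -0.02. The part of germ cell transcripts in the Adam3 rise was not tested. Adam3 stands in a run of neighbours on chromosome 8, in the order Adam18, Adam3, Adam5, Adam32 and Adam9. The others of that run differed by -0.02, 0.01, -0.28 and 0.09, and none passed. Adam1a and Adam4 were the only others of the 21 with a group mean at or above 2.68, at -0.55 ± 0.24 (adjusted p = 0.196) and -0.19 ± 0.19 (adjusted p = 0.589). Without wild type 3, Adam1a differed by -0.85 and passed (adjusted p = 0.0149).

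**Figure D3:**
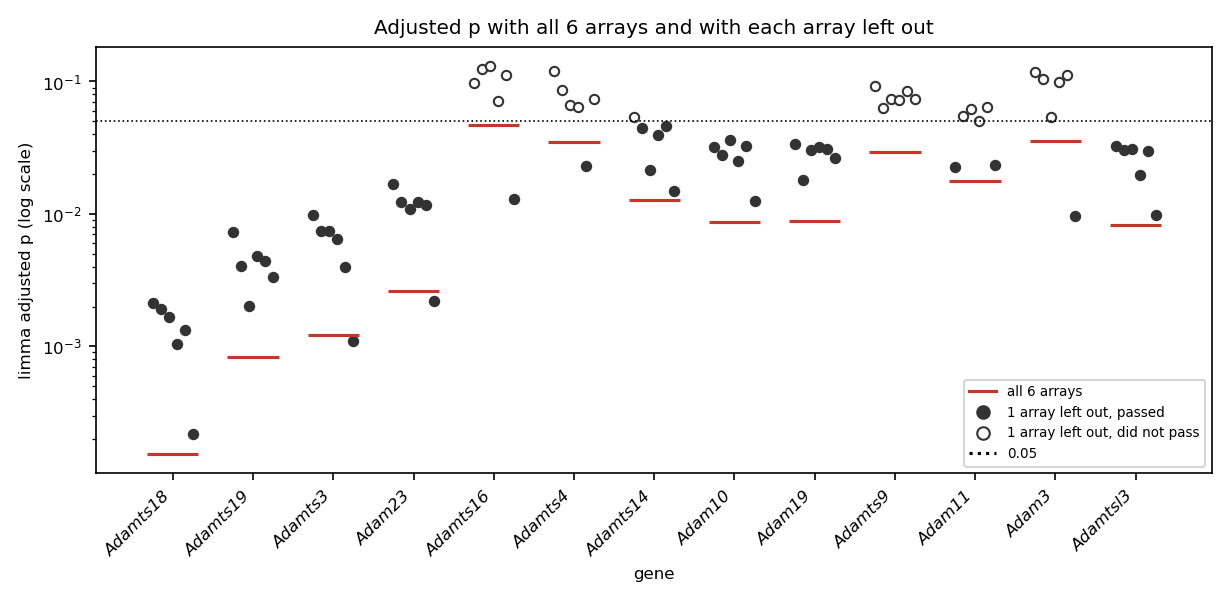
Adjusted p of the 13 called members on a log axis, as a red line for the fit to all 6 arrays and as points for the fits with 1 array left out, filled where the call held and open where it was lost. All 6 points stay under 0.05 for Adamts18, Adamts19, Adamts3, Adam23, Adam10, Adam19 and Adamtsl3. All 6 lie above it for Adamts9.

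Close relatives were set against each other within each array, in 11 pairs chosen by their known relation after the values had been seen. The log2 ratio of the pair was compared between groups by an exact two-sided permutation test, which cannot go below 0.1 with 3 against 3 arrays. With pairs chosen in this way the values are a description. The ratio of Adamts16 to Adamts18 was 1.94 higher in the knockout and that of Adamtsl1 to Adamtsl3 was 1.45 lower. The ratio of Adam22 to Adam23 was 1.04 higher, that of Adamts3 to Adamts14 0.87 lower, at -0.87, and that of Adamts9 to Adamts20 0.76 higher. The ratio of Adam10 to Adam17 differed by -0.49, from 1.37, 1.51 and 1.74 in wild type to 1.15, 1.01 and 0.99 in the knockout. The ratios of Adam12 to Adam19, Adamts17 to Adamts19 and Adamts1 to Adamts5 were 0.61, 0.86 and 0.59 higher. The groups did not overlap in these 9 ratios, and each had an exact p of 0.1, or 0.122 adjusted over the 11 pairs. The ratios of Adamts6 to Adamts10 and of Adamts7 to Adamts12 overlapped.

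Genes that act with these proteases were taken from 6 lists. Over all genes 7.2% fell and 5.05% rose by limma, and 13.4% were lower and 13.1% higher at an unadjusted p under 0.05. None of the 9 regulators of ADAM10 and ADAM17 passed by limma. These are the iRhoms Rhbdf1 and Rhbdf2, their cofactor Frmd8, and the tetraspanins that carry ADAM10, and their differences ran from -0.38 for Tspan5 to 0.14 for Tspan14 among the 8 that were not low in both groups, with a median of 0.05. Tspan10 was low in both groups, and the median with it was 0.09. At an unadjusted p under 0.05, 1 of the 9, Tspan5, was lower. Of 13 measured EGF family ligands and receptors, 5 fell and 2 rose, with a median of -0.38, or -0.60 without Epgn and Ereg, which were low in both groups. The receptor Erbb3 fell by 1.62 ± 0.17 (3.07-fold, adjusted p = 0.00135), the neuregulins Nrg2 and Nrg1 by 1.22 ± 0.18 and 1.11 ± 0.20, and Egfr by 0.90 ± 0.12. The fifth was the ligand Tgfa, which fell by 0.60 ± 0.13. Betacellulin (Btc) and Nrg4 rose by 0.67 ± 0.11 and 0.54 ± 0.14. Areg, which encodes amphiregulin, was not analysed here.

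Of 26 other measured substrates of ADAM sheddases, 7 fell and 1 rose, beside 7.2% and 5.05% of all genes, with a median of -0.13. E-cadherin (Cdh1) fell by 2.16 ± 0.13 (4.48-fold, adjusted p = 0.000212), the chemokine Cxcl16 by 1.48 ± 0.19, syndecan 1 (Sdc1) by 1.38 ± 0.26 and the hyaluronan receptor Cd44 by 1.20 ± 0.18. Notch1 rose by 0.63 ± 0.12 (adjusted p = 0.0165), and Notch2 fell by 0.71 ± 0.16. Of 20 ADAMTS substrates, 4 fell and 0 rose by limma, with a median of -0.27 and 1 gene higher at an unadjusted p under 0.05. These were versican (Vcan, -1.14 ± 0.15, adjusted p = 0.0034), reelin (Reln, -1.04 ± 0.14), the protease inhibitor Tfpi2 (-0.88 ± 0.16) and lumican (Lum, -0.80 ± 0.13). The procollagen genes Col1a1, Col1a2 and Col3a1 differed by -0.27, -0.57 and -0.55 and did not pass (adjusted p = 0.344, 0.0732 and 0.0877).

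Of 14 cofactors and maturation factors of ADAMTS proteins and partners of ADAMTS-like proteins, 1 fell and 0 rose by limma. This count of falls was near the 7.2% of all genes that fell. The median was -0.19, and 1 gene was higher at an unadjusted p under 0.05. The gene that fell was Ltbp1, a latent TGF-beta binding protein of microfibrils (-0.79 ± 0.12, adjusted p = 0.0071). The 6 inhibitors had a median of -0.23, or -0.53 without A2m, which was low in both groups. Of these, Timp4 rose by 1.69 ± 0.13 (adjusted p = 0.000476), and Reck, a membrane-anchored inhibitor that acts on Adam10, fell by 0.85 ± 0.13 (adjusted p = 0.00568). Timp2 fell by 0.52 ± 0.13. Timp3, the inhibitor of Adam17 and of several ADAMTS proteases, read 10.2 in wild type and 10.4 in the knockout (+0.13 ± 0.12, adjusted p = 0.554).

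**Figure D4:**
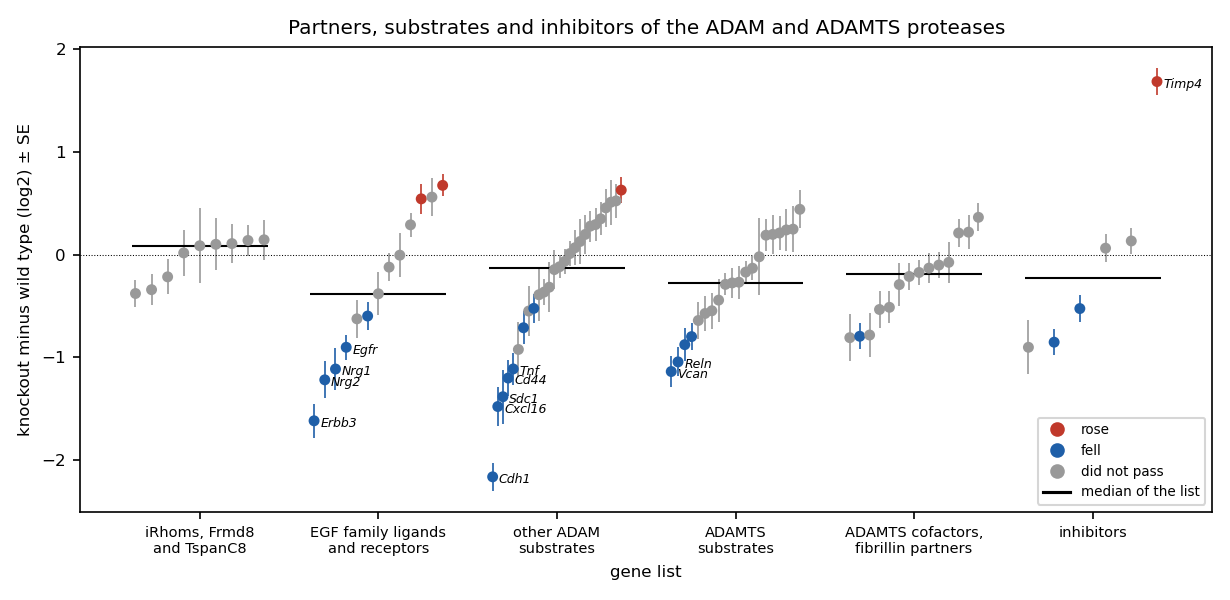
Difference in log2 units with its SE for each gene of the 6 lists, sorted within the list, with blue for falls, red for rises, grey for genes that did not pass and a black line for the list median. Medians run from -0.38 in the EGF family list to 0.09 in the list of Adam10 and Adam17 regulators, and Timp4 has the largest rise at 1.69.

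Markers of the gland's cell types moved in these arrays as well, and are given beside the members with that value only. Over all genes 7.2% fell and 5.05% rose by limma. All 12 measured luminal epithelial markers fell, with a summed log2 level of 11.9 to 12.1 in wild type and 9.61 to 10.1 in the knockout. Of 10 basal and myoepithelial markers 7 fell and 0 rose, at 12 to 12.2 and 11.0 to 11.4, and of 11 fibroblast markers 6 fell and 0 rose, at 14.6 to 14.8 and 14.1 to 14.2. No marker of these 3 lists was low in both groups. Krt14 and Krt15 of the basal list and Cldn7 of the luminal list were low in the knockout, so their falls are possible lower bounds. The luminal median of -2.19 and the basal median of -1.67 stand beside -3.0 for Adamts18, -1.87 for Adamts19, -1.75 for Adamts3 and -1.34 for Adam23, and the fibroblast median of -0.50 stands beside -0.81 for Adam10 and -0.74 for Adam19. At an unadjusted limma p under 0.05, 0 markers of the luminal, basal, fibroblast or macrophage lists were higher. The part of these cells in the falls was not tested.

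Markers of fat and vessels lay higher. Of 10 white adipocyte markers 5 rose and 0 fell, at 14.5 in each wild-type array and 14.8 to 14.9 in the knockout, with none low in both groups. Of 10 thermogenic adipocyte markers 5 rose and 0 fell, at 9.43 to 11.0 and 12.1 to 12.6, with Zic1 low in both groups. Of 11 endothelial markers 3 rose (Kdr, Tie1 and Cldn5) and 0 fell, at 12.2 to 12.3 and 12.5 to 12.7, and of 6 pericyte markers 2 rose (Kcnj8 and Abcc9) and 0 fell, at 10.7 to 10.9 and 11.1 to 11.4. No endothelial or pericyte marker was low in both groups. These medians, 0.42, 1.65, 0.52 and 0.43 in that order, stand beside 0.46 for Adamts9 and 0.89 for Adamtsl3, and the part of these cells in the rises was not tested. Of 11 lymphocyte markers Cd79b, Ighm and Cd2 fell and 0 rose, at 9.66 to 10.1 and 9.23 to 9.35, with Cr2 and Ms4a1 low in both groups. In the direction where none passed, 1 endothelial marker was lower at an unadjusted limma p under 0.05, and 0 of the white adipocyte, thermogenic, pericyte or lymphocyte lists were. Of 8 mast cell and eosinophil markers Fcer1a rose and Kit fell, with Epx and Prg2 low in both groups. None of 15 skeletal muscle markers passed by limma (1 higher and 2 lower at an unadjusted p under 0.05), at 7.996 to 10.5 in wild type and 8.30 to 8.39 in the knockout, with Myh1 low in both groups.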

How the data were processed

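RNA from inguinal mammary glands (400 ng per sample) was hybridised to Affymetrix whole-transcript arrays, per the labels. The deposited values, made by the authors with RMA, per the submitters' processing notes, are normalized signals on a log scale, taken here as log2 because the table does not name its base. The array number limits the precision. No version, batch or scan time is given in the sources used here.

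Of 41345 probe sets, 25335 are in the annotation given and 23521 carry 1 symbol. The probe set with the highest mean stood for each of 22180 genes. limma 3.58.1 in R 4.3.3 (lmFit and eBayes) compared 3 knockout with 3 wild-type arrays, with Benjamini-Hochberg adjustment over all genes and a threshold of 0.05. The labels number replicates 1 to 3 without saying what the numbers mean or how animals were pooled, if at all, so p-values measure the spread between these samples. The fit was tested on simulated data with 22180 genes, of which 68 were changed by 0.5, 57 by 1 and 75 by 2 log2 units. It recovered 5.88%, 59.6% and 92% of these changes in that order, with 4 false calls. The adjustment depends on the share of changed genes, and 12.2% of genes were called in the real arrays. The simulated rates therefore need not hold for this comparison.

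Summed marker levels are log2 of the summed linear signals, which brighter genes dominate. Exact permutation tests used SciPy 1.17.1. Values per array are given for the 13 called members and for 10 others listed by function. Pathway lists are named by at most their 4 largest calls, apart from Timp3 and Areg. Tgfa, Btc, Nrg4, Notch1, Notch2, Tspan5, Tspan10, Tspan14 and the 3 procollagen genes were named after their values were seen. So were the markers Tnp1, Zpbp, Prm1, Spata19, Akap4, Ldhc, Odf1, Tnp2, Pmp22, Mbp and Mag. The members and lists were chosen with earlier results of these data known. Adamts2, Areg and 13 other list entries were not analysed here. Alternatives changed the filter, variance model, array weights, normalization, probe set rule, replicate block, threshold and arrays included.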

Additional observations from a re-analysis of the deposited data

How the results depend on the processing

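No named member changed direction past the threshold. Over the 13 called members, the call was kept in 174 alternatives and lost in 33. These counts include the threshold of 0.1, at which a called member cannot be lost, and leave out the 2-fold limit. At 2-fold, Adam10, Adam19, Adam11, Adam3, Adamts14, Adamts4, Adamts9 and Adamtsl3 were lost. Over the 10 other members given by array, 151 alternatives gave no call and 9 gave one, counting Adam8 and Adamts5 at adjusted p under 0.1. With low genes left out, 1 ADAM rose, 2 ADAMTS-like genes rose and the ADAM median was -0.31, while 9.54% of the genes kept rose and 12.5% fell. The array-weights fit and repeated quantile normalization each gave 2 ADAMTS-like rises, and the latter an ADAM median of -0.077. In these 2 fits 5.7% and 5.73% of all genes rose, and 7.84% and 6.53% fell. Centring on array medians gave 2 ADAMTS-like rises, an ADAM median of 0.18 and an ADAMTS median of -0.34, while 14.2% of all genes rose and 5.31% fell. With an intensity trend, or a robust one, 1 ADAMTS-like gene fell, where 8.58% and 8.61% of all genes fell. At least 2-fold left 1 ADAM fall, 4 ADAMTS falls and 0 rises in each family, where 0.857% of all genes rose and 3.07% fell. At adjusted p under 0.1, 2 ADAMTS-like genes rose and 1 fell, where 8.37% of all genes rose and 10.1% fell. With 1 array left out, ADAM rises ran from 0 to 2, ADAM falls from 3 to 4, ADAMTS rises were 0, ADAMTS falls ran from 3 to 5, and ADAMTS-like rises from 1 to 2. In those fits 2.23% to 3.95% of all genes rose and 4.37% to 6.43% fell. The medians then ran from -0.064 to 0.028 for ADAMs, from -0.65 to -0.36 for ADAMTS genes and from -0.35 to -0.02 for ADAMTS-like genes. The cause of these changes was not tested. Over all genes, 521 rose and 969 fell without wild type 1, and 190 rose and 680 fell at 2-fold or more, against 1121 and 1596.

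Over all genes, the shared replicate numbers showed no sign of pairing: deviations of same-numbered arrays correlated at -0.03, -0.05 and -0.03. These correlations cannot tell whether the samples were paired, because the labels do not say what the numbers mean. With the replicate block, 1 ADAM and 0 ADAMTS genes rose, 5 ADAMTS genes fell, with Adam3 (adjusted p = 0.0793 by limma), Adamts9 (0.0868) and Adamts4 (0.0645) lost and no call gained among the members given by array, and 689 genes rose and 1234 fell over all. Signal near background limits 21 members that were low in both groups.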

Other observations

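Adamdec1, an ADAM relative outside the symbol rule, read 2.35, 2.09 and 2.29 in wild type and 2.42, 2.63 and 2.42 in the knockout, a difference of 0.25 ± 0.13 (limma adjusted p = 0.268). The groups did not overlap, and both means were low. The probe sets shared by Adam34 and Gm5347 had means of 1.53 and 1.58 in wild type and 1.83 and 1.75 in the knockout, and the gene behind the signal cannot be told apart.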
